A study of Mus musculus with 57 samples.

Results

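The genes described here are 10 genes whose proteins consume NAD+, taken by symbol from the counts of 25416 genes in an acute and 54658 genes in a chronic mouse study of doxorubicin (Doxo), an anthracycline that damages DNA and harms the heart. They are *Parp1*, *Parp2*, *Parp3*, *Parp9*, *Parp10*, *Parp12*, *Parp14*, *Cd38*, *Bst1* and *Sarm1*, and all 10 are present in both tables. RNA of whole heart tissue from male wild-type C57BL6/J mice was sequenced, 1 library a heart. In the acute study, mice bought at 9 weeks of age received saline (Ctrl, 14 hearts), 1 intraperitoneal injection of 20 mg/kg Doxo (Doxo, 13 hearts), or that injection together with nicotinamide mononucleotide (NMN, a precursor of NAD+) at 180 mg/kg/day by intraperitoneal injection, begun 5 days before Doxo (Doxo-NMN, 13 hearts), and the hearts were taken on day 5. In the chronic study, mice of 14 to 16 weeks from another supplier received PBS (Ctrl, 5 hearts), 5 injections of 4 mg/kg Doxo (Doxo, 6 hearts), or these injections with NMN at 500 mg/kg/day in the drinking water, also begun 5 days before Doxo (Doxo-NMN, 6 hearts), and the hearts were taken on day 60. Neither study had a group given NMN alone, and only mice that survived to collection gave a heart. The 2 studies also differed in age, supplier, route and dose of NMN and sequencing site, which cannot be told apart from the regimen.

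Total counts ranged from 32409622 to 52102850 per acute heart and from 17769886 to 23862287 per chronic heart. Levels are given as CPM, the counts scaled to library size after TMM normalization. A count of 3 corresponded to between 0.0576 and 0.0926 CPM in acute and between 0.126 and 0.169 CPM in chronic hearts, a limit that covers counting error only. A gene is said to rise or fall where its adjusted p-value was under 0.05 in edgeR's quasi-likelihood F-test with Benjamini-Hochberg adjustment over all tested genes, and is called where, in the acute study, the change was also at least 1.5-fold. Of the 10 genes, 9 passed the filter on low counts in each study and *Sarm1* did not. Acute Doxo replicate 6 lay close to the Ctrl hearts over all tested genes, at 0.0544 on a scale from the Ctrl mean (0) to the Doxo mean (1), whereas the other Doxo hearts lay between 0.452 and 1.45. The atrial marker *Myl4* reached at least 100 CPM in 8 of 14 Ctrl, 5 of 13 Doxo and 4 of 13 Doxo-NMN acute hearts and in 0 of 17 chronic hearts. The 4 red cell markers fell in every acute comparison, from a summed median of 974 CPM in Ctrl hearts to 1.96 with Doxo and 1.29 CPM with Doxo and NMN, and their part in the results was not tested.

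NAD+ carries electrons in energy metabolism and is also consumed as a substrate. Poly(ADP-ribose) polymerases (PARPs) split NAD+ and transfer its ADP-ribose to proteins and nucleic acids: PARP1, PARP2 and PARP3 are activated by DNA breaks, whereas PARP9, PARP10, PARP12 and PARP14 belong to the interferon response and, apart from PARP9, attach single ADP-ribose units. CD38 and BST1 (CD157) hydrolyse NAD+ at the cell surface and CD38 also degrades NMN, while SARM1 hydrolyses NAD+ inside neurons, where a high ratio of NMN to NAD+ activates it. In the heart, strong PARP1 activation after DNA or oxidative damage is known to drain NAD+.

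Promoter sequences of *Parp1*, *Parp12* and *Cd38* are shown because these 3 genes passed the test in the acute hearts and the results turn on them. They are RefSeq windows of GRCm38.p6 around the annotated transcription start, written 5′ to 3′ along the gene, with each CpG dinucleotide in capitals. The *Parp1* window lies at chr1:180568641-180568940 on the plus strand, the *Parp12* window at chr6:39118300-39118599 on the minus strand and the *Cd38* window at chr5:43868559-43868858 on the plus strand.
Parp1: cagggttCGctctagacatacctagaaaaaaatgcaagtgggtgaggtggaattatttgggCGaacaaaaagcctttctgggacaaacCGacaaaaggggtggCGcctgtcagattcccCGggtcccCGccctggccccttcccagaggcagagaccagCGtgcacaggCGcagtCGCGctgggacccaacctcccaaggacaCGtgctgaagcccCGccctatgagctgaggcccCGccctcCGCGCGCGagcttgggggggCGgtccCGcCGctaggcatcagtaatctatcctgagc
Parp12: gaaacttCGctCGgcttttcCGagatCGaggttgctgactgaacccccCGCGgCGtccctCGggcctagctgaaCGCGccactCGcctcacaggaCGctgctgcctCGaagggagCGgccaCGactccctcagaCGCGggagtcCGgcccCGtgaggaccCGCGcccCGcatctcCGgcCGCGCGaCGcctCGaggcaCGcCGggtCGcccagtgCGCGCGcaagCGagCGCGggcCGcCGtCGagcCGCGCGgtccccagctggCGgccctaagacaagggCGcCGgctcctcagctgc
Cd38: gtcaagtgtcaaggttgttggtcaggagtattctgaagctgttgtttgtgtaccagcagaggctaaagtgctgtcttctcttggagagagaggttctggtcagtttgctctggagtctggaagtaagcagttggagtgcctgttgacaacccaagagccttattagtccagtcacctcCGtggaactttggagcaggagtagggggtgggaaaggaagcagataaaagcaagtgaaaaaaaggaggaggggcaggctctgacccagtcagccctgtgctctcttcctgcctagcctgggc
The windows differed in CpG content. *Parp12* had 46 CpGs, more than 98.4% of the 32851 promoter windows of the table, *Parp1* had 20 and *Cd38* had 1, against a median of 7 over all windows. The core of the interferon-stimulated response element, GAAA repeated after any 2 bases, and the gamma-activated sequence TTCNNNGAA were searched on both strands. Neither was found in the windows of *Parp1*, *Parp2*, *Parp3*, *Parp12*, *Cd38* and *Sarm1*, whereas 3.44% and 8.3% of all windows held the first and the second. No window was matched for *Parp9*, *Parp10*, *Parp14* and *Bst1*.

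Levels of different genes were compared per kb of exon. In acute Ctrl hearts *Parp1* was at 11.97 ± 0.405 CPM per kb (SD, n = 14) and *Parp3* at 11.4 ± 1.43, and the ranges of this pair overlapped. *Parp12* followed at 6.17 ± 0.324 CPM per kb without overlap with either neighbour. *Parp2* (3.93), *Parp9* (3.66), *Parp14* (3.21), *Parp10* (3.09) and *Cd38* (2.67 CPM per kb) formed a series in which every neighbouring pair overlapped. *Bst1* was at 0.507 and *Sarm1* at 0.0261 CPM per kb, each apart from its neighbours. In acute Doxo hearts *Cd38* stood 4th at 4.10 ± 1.73 CPM per kb (SD, n = 13), level with *Parp2* at 4.05, and *Parp3* (11.7) stood above *Parp1* (8.43). In the chronic study *Parp3* led all groups, from 15.5 to 16.8 CPM per kb, followed by *Parp1* at 11.3 to 12.1.

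**Figure D1:**
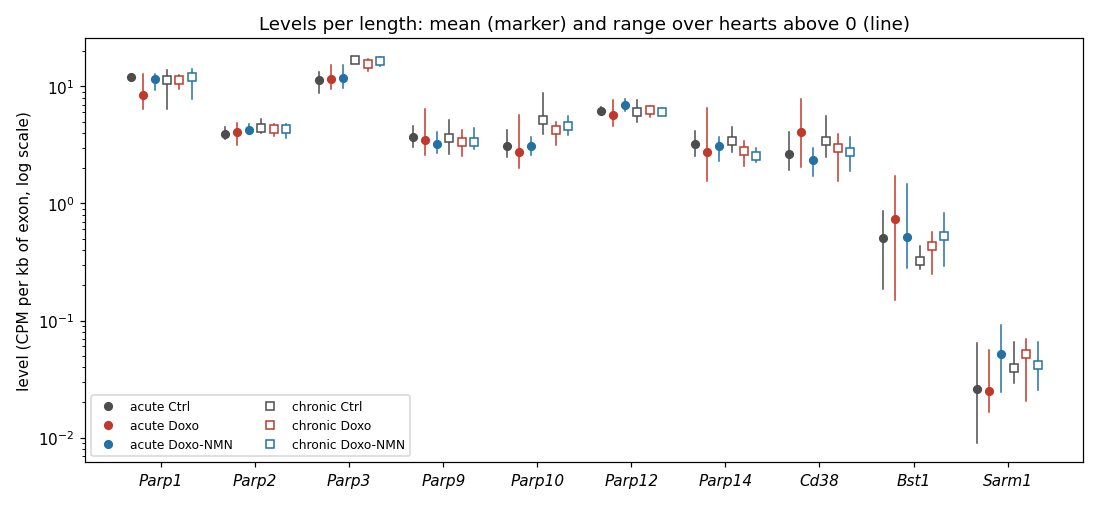
Mean level of each gene in CPM per kb of exon on a log axis (circles, acute; squares, chronic; grey Ctrl, red Doxo, blue Doxo-NMN), with lines for the range over hearts above 0. In acute Ctrl hearts the means span 0.0261 (Sarm1) to 11.97 CPM per kb (Parp1).

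In the acute study *Parp1*, whose product senses DNA breaks, fell with Doxo and *Cd38*, a main NAD+ hydrolase, rose. In the hearts given NMN with Doxo neither passed the test against Ctrl, and *Parp12* was above Ctrl. Of the 9 tested genes 2 changed in Doxo vs. Ctrl (1 higher, 1 lower), where 68.1% of the 14240 tested genes changed (34.8% higher, 33.3% lower). In Doxo-NMN vs. Doxo 3 changed (2 higher, 1 lower), where 53% of all genes did (25.7% higher, 27.4% lower). With the 1.5-fold limit *Cd38* alone was called in each of these comparisons, against 30.1% and 17.1% of all genes. When Doxo-NMN was set against Ctrl, 1 of 9 changed, upward, where 26% of all genes did (15% higher, 11.1% lower), and 0 were called, against 7.11% of all genes. The members' shares were thus below the share of all genes in each of these comparisons. Both comparisons with Doxo use the same Doxo hearts, and both with Ctrl the same Ctrl hearts.

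**Figure D2:**
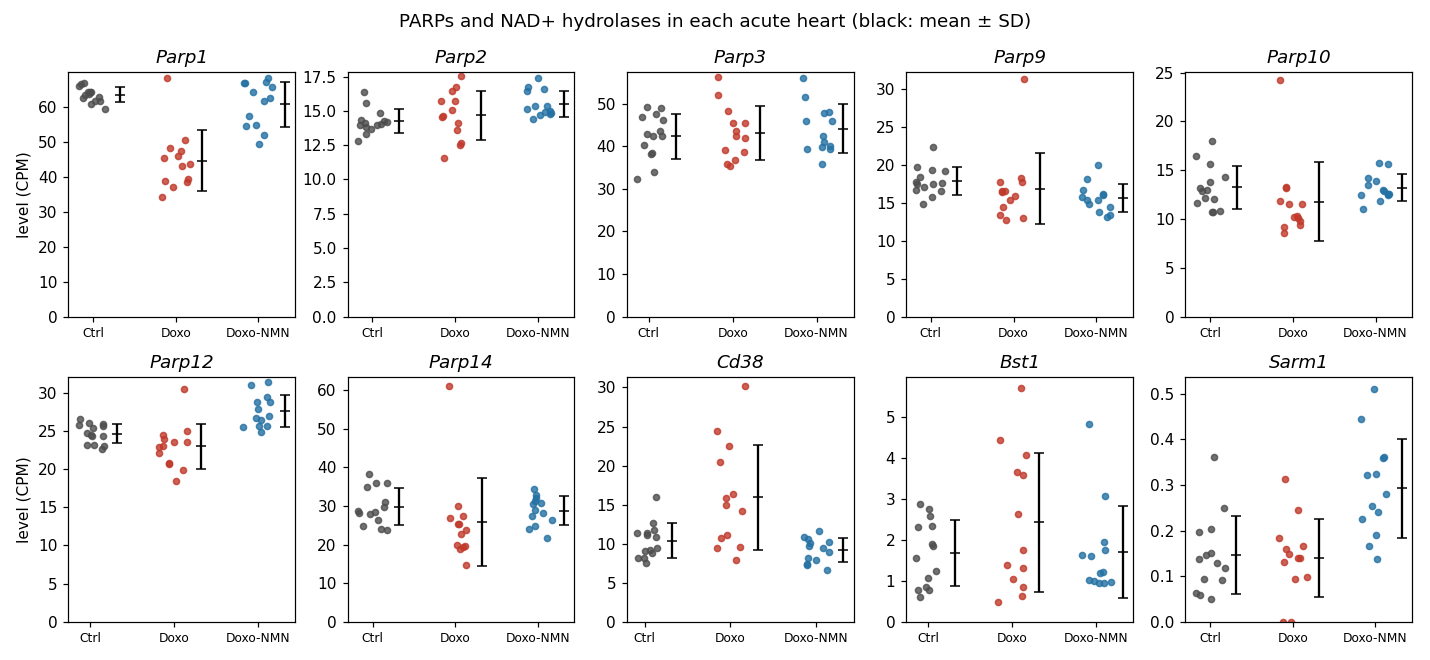
Level in CPM of each of the 10 genes in every acute heart by group, with the mean ± SD in black. For Parp1, 12 of the 13 Doxo hearts lie below all 14 Ctrl hearts; for Cd38, 5 of the 13 Doxo hearts lie above all Ctrl hearts.

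*Parp1* ranged from 59.2 to 66.7 CPM in Ctrl hearts (median 63.5), from 34.1 to 68.3 CPM in Doxo hearts (median 43.7) and from 49.4 to 68.1 CPM in Doxo-NMN hearts (median 62.4). In 12 of the 13 Doxo hearts it was below the lowest Ctrl heart, and the remaining heart, replicate 6, had the highest value of all. All 13 Doxo-NMN hearts were above the Doxo median, while 5 of them were below the lowest Ctrl heart. The mean fell from 63.3 ± 2.14 (SD, n = 14) to 44.6 ± 8.59 CPM (n = 13), a log2 fold change of −0.51 (SE 0.0678, adjusted p = 4.59e-08), or 0.704-fold. Without replicate 6 the Doxo mean was 42.6 ± 5.05 CPM (n = 12). In Doxo-NMN vs. Doxo *Parp1* rose by 0.45 on the log2 scale to 60.8 ± 6.44 CPM (adjusted p = 3.67e-06), and against Ctrl it was at −0.06. Within hearts under 100 CPM of *Myl4* the Doxo effect was −0.45 (adjusted p = 0.000693) and within those at or above it −0.64 (adjusted p = 2.21e-06). In these bulk samples fewer cells that express a gene and less RNA of it per cell cannot be told apart.

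Markers of the main cell types of the heart also moved in the acute study, in both directions within each of 3 lists. Of all tested genes 68.1% changed with Doxo and 53% in Doxo-NMN vs. Doxo. Of 5 cardiomyocyte markers 2 rose and 2 fell with Doxo: *Myh6* fell by 0.69 and *Actc1* by 1.26, and in Doxo-NMN vs. Doxo they rose by 0.82 and 0.92, whereas *Tnnt2* was at 0.76 and then −0.34. The summed level of this list was 47580 to 58760 CPM in Ctrl, 22540 to 63570 with Doxo and 29630 to 66940 CPM with Doxo and NMN. Of 5 endothelial markers 1 rose and 2 fell with Doxo, of 5 fibroblast markers 1 rose and 2 fell, and of 5 mural cell markers 0 rose and 2 fell. The numbers in Doxo-NMN vs. Doxo were 0 and 2 endothelial, 2 and 3 fibroblast, and 1 and 1 mural markers. The part of these cell types in the change of *Parp1* was not tested.

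The spread of *Parp1* between acute Ctrl hearts was small. The SD of its log2 CPM was 0.0489 in Ctrl, 0.253 in Doxo and 0.157 in Doxo-NMN hearts. The ratio of Doxo to Ctrl was 5.17, larger than that of 96.6% of all tested genes, whose median ratio was 1.94. Without Doxo replicate 6, the heart close to Ctrl, the SD was 0.174 and the ratio 3.55, larger than that of 90.4% of the genes (median 1.81), an alternative chosen after seeing the data. For Doxo-NMN the ratio was 3.22, larger than that of 97.4% of the genes. Both ratios divide by the same small Ctrl SD. In the chronic study the SD was 0.437 in Ctrl and 0.159 in Doxo hearts, a ratio of 0.364 (median over all genes 0.947).

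The other PARPs activated by DNA breaks did not pass the edgeR test in any acute comparison with all hearts. *Parp2*, which shares part of the role of PARP1 in break repair, ranged from 12.8 to 16.4 CPM in Ctrl (median 14.1), 11.6 to 17.6 in Doxo (median 14.6) and 14.4 to 17.4 CPM in Doxo-NMN hearts (median 15.1). Its log2 fold changes were 0.04 for Doxo and 0.12 for Doxo-NMN, each against Ctrl (adjusted p = 0.456 and 0.0738), and 0.08 between these groups. Among the alternatives the second passed in 2, at 0.14 with limma (adjusted p = 0.00209) and at 0.12 with the 2 groups alone (adjusted p = 0.0176). The 95% interval of the Doxo effect was −0.06 to 0.15, which leaves out a change of the size seen for *Parp1*. *Parp3*, which acts at double-strand breaks, had means of 42.3 ± 5.29, 43.2 ± 6.32 and 44.1 ± 5.75 CPM in the order Ctrl, Doxo and Doxo-NMN. Its log2 fold changes were 0.03 with Doxo and 0.03 between the Doxo-NMN and the Doxo hearts.

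Among the interferon-inducible PARPs, *Parp12*, an RNA-binding mono-ADP-ribosyltransferase, was higher in the hearts given NMN. It ranged from 22.6 to 26.5 CPM in Ctrl (median 24.6), 18.5 to 30.5 in Doxo (median 23.03) and 24.9 to 31.4 CPM in Doxo-NMN hearts (median 26.9). All 13 Doxo-NMN hearts were above the medians of both other groups, and 8 of them were above the highest Ctrl heart. The rise was 0.26 on the log2 scale in Doxo-NMN vs. Doxo (22.97 ± 2.96 to 27.6 ± 2.13 CPM, adjusted p = 8.79e-05) and 0.16 relative to the Ctrl hearts (24.6 ± 1.29 CPM, adjusted p = 0.0169). Doxo vs. Ctrl gave −0.10 (adjusted p = 0.0783). Within hearts under 100 CPM of *Myl4* the difference from Ctrl was 0.09 (adjusted p = 0.491), and within the others 0.28 (adjusted p = 0.00803).

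*Parp9*, *Parp10* and *Parp14* did not pass the test in any acute comparison with all hearts. In Doxo vs. Ctrl, and for *Parp10* and *Parp14* in Doxo-NMN vs. Doxo, this rested on 1 heart in edgeR. With limma on all hearts these genes fell in Doxo vs. Ctrl. *Parp9*, which works with the ubiquitin ligase DTX3L, ranged from 14.9 to 22.3 CPM in Ctrl (median 17.6), 12.7 to 31.3 in Doxo (median 16.5) and 13.2 to 19.96 CPM in Doxo-NMN hearts (median 15.4). *Parp10*, a mono-ADP-ribosyltransferase, ranged from 10.7 to 17.98, 8.58 to 24.2 and 11.02 to 15.7 CPM in the same order. *Parp14*, a large enzyme with macrodomains, ranged from 23.9 to 38.4, 14.6 to 61.1 and 21.6 to 34.3 CPM. In each case the highest Doxo value was that of replicate 5, with the next Doxo heart at 18.3 CPM for *Parp9*, 13.3 for *Parp10* and 30.0 for *Parp14*. Replicate 5 was also the highest Doxo heart for *Parp12* and for *Cd38*.

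With all hearts, Doxo vs. Ctrl gave log2 fold changes of −0.08 for *Parp9*, −0.17 for *Parp10* and −0.21 for *Parp14* (adjusted p = 0.141). Replicate 5 was the highest Doxo heart for each of the 4 genes, so leaving it out lowers their Doxo means and spread by construction. Of 27 fits that left out 1 heart, only that without replicate 5 passed for *Parp9*, *Parp10* and *Parp14*, and 3 passed for *Parp12*. Of the alternatives other than leaving out 1 heart, 2 passed for *Parp9*, 2 for *Parp10*, 3 for *Parp12* and 3 for *Parp14*. Without Doxo replicate 5 all 4 genes fell: *Parp9* by 0.20 (adjusted p = 0.00871), *Parp10* by 0.31 (adjusted p = 0.000717), *Parp12* by 0.15 (adjusted p = 0.00376) and *Parp14* by 0.40 on the log2 scale (adjusted p = 0.000274). In that fit 66.2% of all tested genes changed. In Doxo-NMN vs. Doxo the values with all hearts were −0.11 for *Parp9*, 0.17 for *Parp10* and 0.16 for *Parp14*. Here, too, only 1 of 26 fits that left out 1 heart passed for *Parp10* and for *Parp14*. Of the other alternatives 3 passed for *Parp10* and 3 for *Parp14*. Without replicate 5, *Parp10* (0.31, adjusted p = 0.00191) and *Parp14* (0.34, adjusted p = 0.0031) rose, as *Parp12* did, and *Parp9* was at −7.23e-05. There 50.1% of all tested genes changed. *Parp9* in Doxo-NMN hearts was at −0.19 relative to Ctrl (adjusted p = 0.107), did not pass in any of the 27 fits that left out 1 heart, and passed with limma (−0.18, adjusted p = 0.014) and with the 2 groups alone (−0.20, adjusted p = 0.0119). In that heart the 20 interferon-induced genes of the list described below summed to 524 CPM, against a Doxo median of 216 CPM and a Ctrl range of 160 to 254 CPM.

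*Cd38* ranged from 7.59 to 15.96 CPM in Ctrl (median 10.1), from 7.91 to 30.2 CPM in Doxo (median 14.98) and from 6.65 to 11.6 CPM in Doxo-NMN hearts (median 9.47). The Doxo hearts overlapped with the Ctrl hearts: 5 of 13 were above the highest Ctrl heart and 10 of 13 above the Ctrl median. All 13 Doxo-NMN hearts were below the Doxo median. The mean rose from 10.4 ± 2.24 (SD, n = 14) to 15.96 ± 6.72 CPM (n = 13) with Doxo, by 0.62 on the log2 scale (SE 0.152, adjusted p = 0.000514). It fell by 0.80 in Doxo-NMN vs. Doxo, to 9.14 ± 1.55 CPM (SE 0.156, adjusted p = 6.88e-05), and relative to Ctrl it was at −0.18. The rise with Doxo was 0.45 within hearts under 100 CPM of *Myl4* (adjusted p = 0.102) and 0.75 within the others (adjusted p = 0.000764). It was just past the 1.5-fold limit, and leaving out Ctrl replicate 4 or Doxo replicate 4, 5, 11 or 12 took it below 1.5-fold, with 0.49 on the log2 scale without Doxo replicate 5. Its adjusted p stayed under 0.05 in all 27 fits that left out 1 heart.

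CD38 is made by several immune cell types, whose markers also moved, where 68.1% of all tested genes changed with Doxo and 53% in Doxo-NMN vs. Doxo. Of 6 neutrophil markers 5 were tested and all rose with Doxo, with *S100a8* at a log2 fold change of 5.04 and *Csf3r* at 0.63. Their summed level went from 1.70 to 5.15 CPM in Ctrl (median 2.60) to 3.14 to 264 CPM in Doxo (median 16.3) and 4.81 to 30.3 CPM in Doxo-NMN hearts (median 9.65), and 1 of the 6 had no counts in any Ctrl heart. Of 7 macrophage markers 1 rose and 2 fell with Doxo, and their summed median was 206 CPM in Ctrl hearts, 166 with Doxo and 168 CPM with Doxo and NMN. Of 4 B cell markers 2 were tested and both fell, with summed medians of 1.15 CPM in Ctrl and 0.361 CPM in Doxo hearts. Of 6 T and NK cell markers only *Cd4* was tested and fell, with summed medians of 0.980 and 0.787 CPM. The others were too low to test and were split. From Ctrl to Doxo the mean went from 0.0440 to 0.102 CPM for *Cd3e*, 0.0483 to 0.104 for *Cd3d* and 0.0982 to 0.267 for *Cd8a*. It went from 0.127 to 0.0611 CPM for *Nkg7* and from 0.0994 to 0.0231 CPM for *Ncr1*. In the Doxo-NMN vs. Doxo comparison 3 of the 5 neutrophil markers fell, 2 of 7 macrophage markers rose and none of the tested lymphocyte markers changed. Within groups, *Cd38* and the neutrophil sum had a Pearson's r of 0.199 over the 40 acute hearts, whose libraries and depth the values share. The part of these cells in the change of *Cd38* was not tested.

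*Bst1*, which lies next to *Cd38* on chromosome 5 and encodes a related enzyme, varied widely. It ranged from 0.616 to 2.87 CPM in Ctrl (median 1.70), 0.496 to 5.72 in Doxo (median 1.75) and 0.937 to 4.84 CPM in Doxo-NMN hearts (median 1.21). Doxo vs. Ctrl gave a log2 fold change of 0.53 with a 95% interval of −0.12 to 1.19 (adjusted p = 0.143), and Doxo-NMN vs. Doxo gave −0.52, or −0.76 without Doxo-NMN replicate 7 (adjusted p = 0.0463). That heart was the highest of its group, with the next at 3.06 CPM, and this was the only 1 of 26 fits leaving out 1 heart that passed. Within hearts under 100 CPM of *Myl4* the Doxo effect was 1.07 (adjusted p = 0.0216) and within the others 0.56 (adjusted p = 0.141).

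*Sarm1* was near the limit of detection. Its counts ranged from 2 to 14 in Ctrl, 0 to 12 in Doxo and 6 to 20 in Doxo-NMN hearts, with means of 0.147 ± 0.0852, 0.140 ± 0.0854 and 0.293 ± 0.108 CPM. Fewer than 3 counts were found in 3 Ctrl, 2 Doxo and 0 Doxo-NMN hearts, and 6 of 13 Doxo-NMN hearts were above the highest Doxo heart. Without the filter on low counts it rose by 1.07 on the log2 scale in Doxo-NMN vs. Doxo (adjusted p = 0.0116) and by 0.97 relative to Ctrl (adjusted p = 0.0352), while the Doxo effect was −0.11. Under 100 CPM of *Myl4* the first was 1.16 (adjusted p = 0.0325) and the second 0.77 (adjusted p = 0.274), and in the other hearts they were 0.98 (adjusted p = 0.128) and 1.23 (adjusted p = 0.0947). Of the counts from 1 to 20 in an acute heart a median of 73.6% were even numbers, against 40.3% in a chronic heart, which bears on counts this low. The 6 markers of nerve and Schwann cells, where SARM1 is known to act, summed to a median of 10.8 CPM in Ctrl hearts, 6.84 with Doxo and 8.52 CPM with Doxo and NMN. Of the 3 that were tested 2 fell with Doxo, where 33.3% of all genes fell. In the Doxo-NMN vs. Doxo comparison 2 rose, where 25.7% of all genes rose. The part of these cells was not tested.

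In the chronic study none of the 9 tested genes passed the test in any comparison, by edgeR, by DESeq2 or by limma with voom. At an unadjusted p under 0.05 the edgeR counts were 0 for Doxo against Ctrl, 0 for Doxo-NMN against Doxo and 2 for Doxo-NMN against Ctrl. At that unadjusted limit 1174, 441 and 707 of all 14960 tested genes passed in these comparisons. At an adjusted p under 0.05 it was 0.0602%, 0% and 0.0401% of all tested genes. The fold changes of the 9 genes lay between −0.30 and 0.43 on the log2 scale in the first, between −0.15 and 0.27 in the second and between −0.42 and 0.70 in the last of these comparisons.

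**Figure D3:**
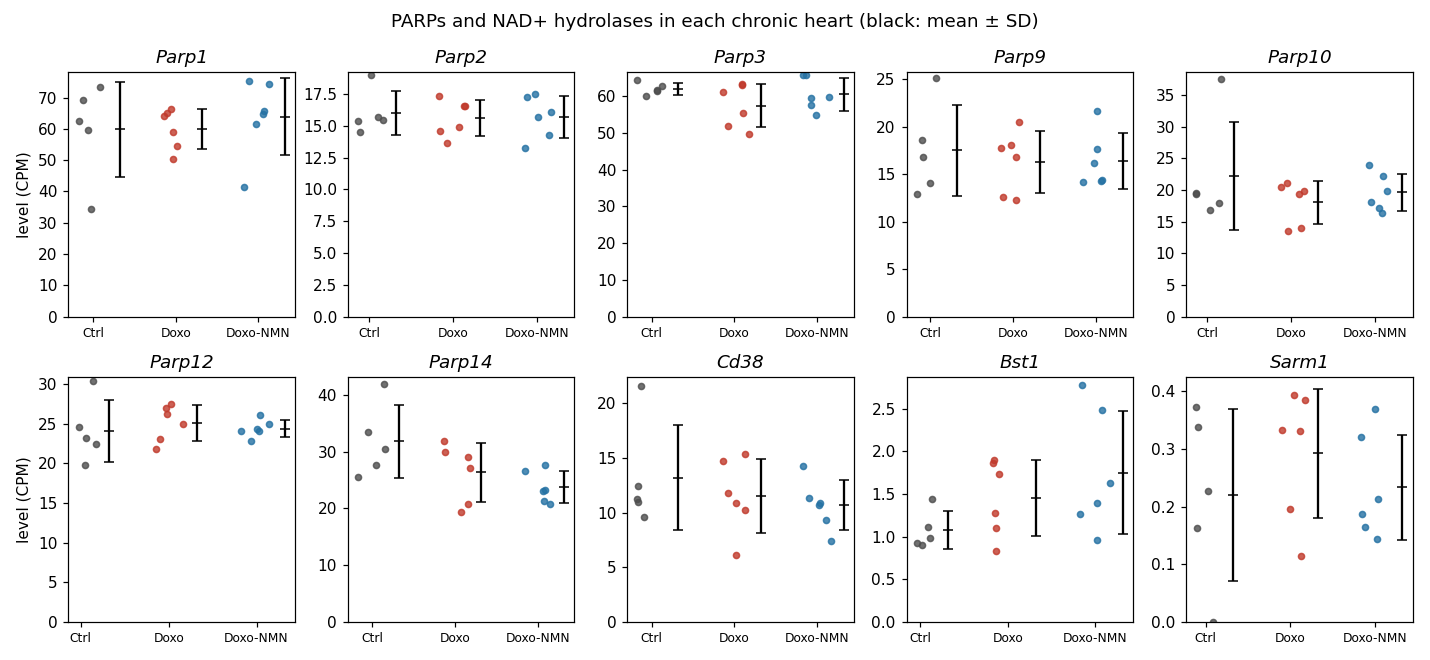
Level in CPM of each of the 10 genes in every chronic heart by group, with the mean ± SD in black. Ctrl replicate 1 has the lowest Parp1 (34.3 CPM) and the highest Parp10 (37.5 CPM) and Cd38 (21.6 CPM) of all 17 hearts.

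*Parp1* was at 34.3, 73.4, 62.6, 59.6 and 69.3 CPM in chronic Ctrl replicates 1 to 5, at 50.4 to 66.4 CPM in Doxo (median 61.5) and at 41.4 to 75.3 CPM in Doxo-NMN hearts (median 65.2). The groups overlapped and Doxo vs. Ctrl gave a log2 fold change of 0.00, with a 95% interval of −0.34 to 0.34. *Cd38* was at 21.6, 11.3, 10.98, 12.4 and 9.62 CPM in Ctrl replicates 1 to 5, at 6.09 to 15.3 CPM in Doxo (median 11.4) and at 7.42 to 14.3 CPM in Doxo-NMN hearts (median 10.8). Doxo vs. Ctrl gave −0.19 with an interval of −0.65 to 0.27. *Parp12* had means of 24.1 ± 3.90 (SD, n = 5), 25.1 ± 2.26 (n = 6) and 24.4 ± 1.08 CPM (n = 6), and Doxo-NMN vs. Doxo gave −0.04.

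The pair with an unadjusted p under 0.05 in chronic Doxo-NMN vs. Ctrl were *Parp14* and *Bst1*. *Parp14* was at 23.8 ± 2.78 CPM in Doxo-NMN (n = 6) and 31.8 ± 6.46 CPM in Ctrl hearts (n = 5), a log2 fold change of −0.42 with an adjusted p of 0.906 in edgeR. *Bst1* was at 1.75 ± 0.719 and 1.07 ± 0.222 CPM, a log2 fold change of 0.70 with an adjusted p of 0.999. *Sarm1* was at 0.220, 0.293 and 0.234 CPM in chronic Ctrl, Doxo and Doxo-NMN hearts, with counts from 0 to 8.

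**Figure D4:**
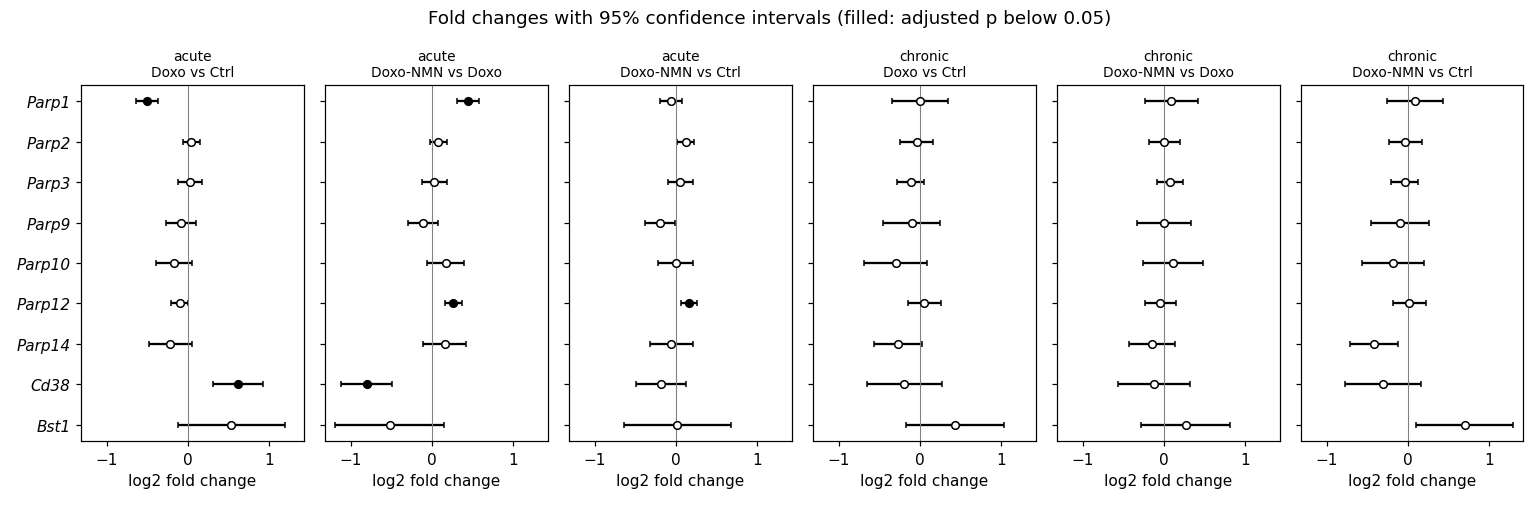
Log2 fold changes of the 9 tested genes with 95% confidence intervals in the 3 comparisons of each study; filled points have an adjusted p under 0.05. Filled points are seen in the acute panels only: Parp1 and Cd38 in Doxo vs. Ctrl, Parp1, Parp12 and Cd38 in Doxo-NMN vs. Doxo, and Parp12 in Doxo-NMN vs. Ctrl.

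The difference between the studies was tested in a fit of all 57 hearts, which kept all 10 genes. The effect of Doxo differed for *Parp1*, by −0.50 on the log2 scale (acute minus chronic, SE 0.159, adjusted p = 0.0179), and for *Cd38*, by 0.80 (SE 0.287, adjusted p = 0.036), which makes 2 of 10 genes where 23.6% of the 15152 tested genes differed. Without chronic Ctrl replicate 1 the differences were −0.36 (adjusted p = 0.0727) and 0.55 (adjusted p = 0.162), so both calls rested on that heart. The *Cd38* call was also lost in 6 other fits, those without acute Doxo replicate 4, 5 or 12 or chronic Doxo replicate 1, 2 or 3, with adjusted p between 0.0527 and 0.067. The effect of NMN in Doxo-treated hearts differed for *Parp12*, by 0.31 (SE 0.0970, adjusted p = 0.0433), which makes 1 of 10 genes against 6.09% of all genes. Its adjusted p was over 0.05 in 17 of 38 fits that left out 1 heart, up to 0.0753. For *Parp1* this difference was 0.36 (adjusted p = 0.127), for *Cd38* −0.68 (adjusted p = 0.115), for *Parp14* 0.32 (adjusted p = 0.368) and for *Sarm1* 1.39 (adjusted p = 0.127).

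The interferon-inducible PARPs varied from heart to heart together with other interferon-induced genes. After the group means were removed, Pearson's r with the summed level of 20 interferon-induced genes over the 40 acute hearts was 0.832 for *Parp9*, 0.735 for *Parp10*, 0.683 for *Parp12* and 0.861 for *Parp14*. Over the 17 chronic hearts it was 0.912, 0.921, 0.849 and 0.809 in this order. *Cd38* had an r of 0.681 and 0.806, and *Parp1* one of −0.253 and −0.802. Without the pair of hearts farthest from the median of that sum, which were Doxo replicate 5 and Doxo-NMN replicate 2 in the acute and Ctrl replicate 1 and Doxo replicate 5 in the chronic study, the acute values were 0.672, 0.579, 0.466 and 0.773 for the 4 PARPs, and the chronic ones 0.908, 0.842, 0.708 and 0.704. These are descriptions over hearts whose genes share library and depth.

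**Figure D5:**
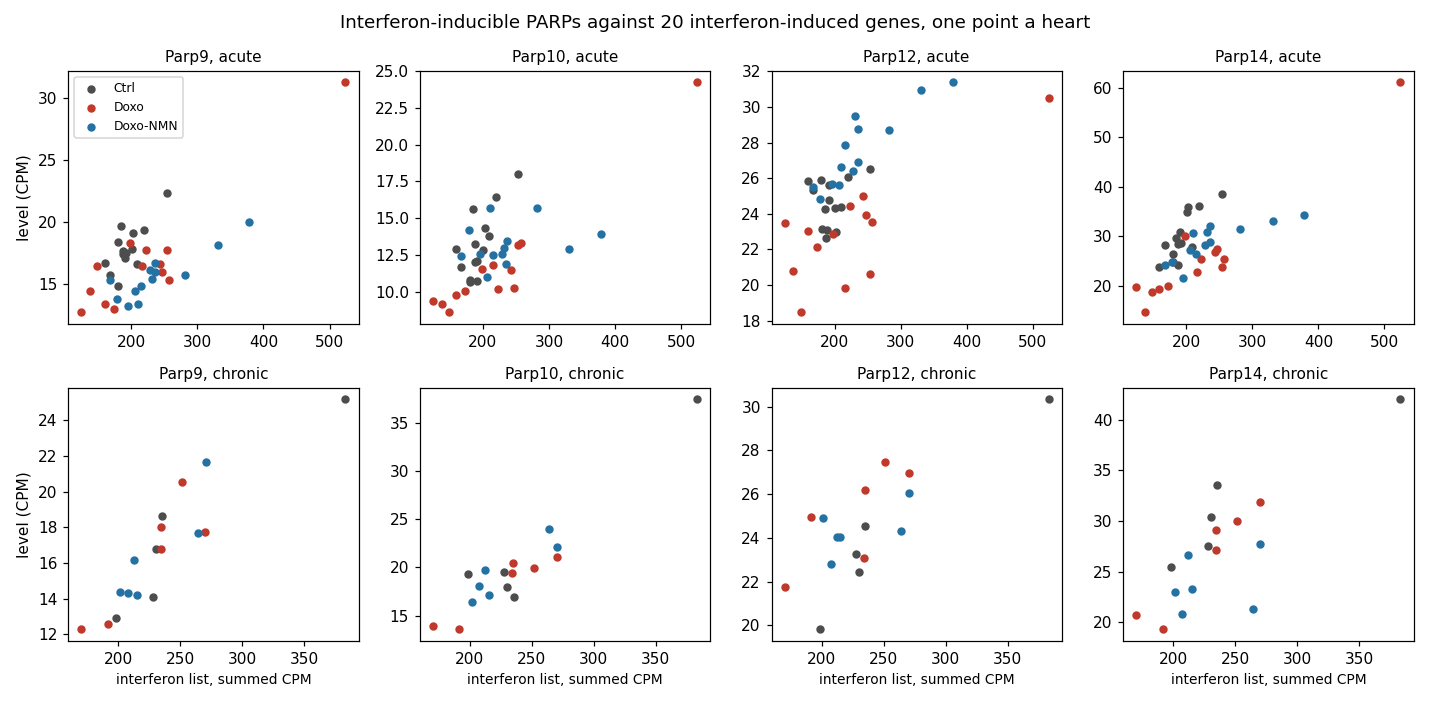
Level in CPM of Parp9, Parp10, Parp12 and Parp14 against the summed CPM of 20 interferon-induced genes, 1 point a heart, acute above and chronic below. Acute Doxo replicate 5 stands at the upper right at a sum of 524 CPM, and chronic Ctrl replicate 1 at 383 CPM.

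The genes whose heart-to-heart pattern was most like that of each member were found over the 40 acute hearts. They were picked as the highest of all tested genes, so their acute r values are high by selection. For *Parp14* they were *Gbp5* (Pearson's r 0.897), *Gbp7* (0.882) and *Ddx58* (0.87), and for *Parp9* they were *Parp14* (0.828), *Trim30a* (0.796) and *Ddx58* (0.793). For *Parp10* they were *Tap1* (0.859), *Nlrc5* (0.808) and *H2-Q7* (0.802), genes of antigen presentation, and for *Parp12* they were *Trim34a* (0.76), *Herc6* (0.756) and *Xaf1* (0.751). In the chronic hearts these r values lay between 0.661 and 0.924. For *Cd38* they were *Gda* (0.869), *Rnf125* (0.832) and *Irf8* (0.81), with 0.638, 0.626 and 0.491 in the chronic hearts.

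For *Parp1* the closest were *Tufm*, a mitochondrial translation factor (0.865), *Ndufaf3*, an assembly factor of respiratory complex I (0.847), and *As3mt*, arsenite methyltransferase (0.844). In the chronic hearts *As3mt* had an r of 0.964 with *Parp1*, *Tufm* 0.437 and *Ndufaf3* −0.084. Without the pair of chronic hearts farthest from the *Parp1* median the values were 0.855, −0.0909 and −0.269 in this order. For *Bst1* they were *C3* (0.906), *Slc39a8* (0.885) and *Tat* (0.878), and in the chronic hearts *C3* had 0.0286 and *Slc39a8* 0.555. For *Parp3* they were *Aen*, a p53-induced nuclease (0.744), *Ift43* (0.735) and *March5* (0.735), with 0.723, 0.107 and −0.0471 in the chronic hearts. For *Parp2* they were *Rundc3a* (0.558), *Def6* (0.553) and *Dtwd2* (0.548), with 0.294, 0.32 and −0.553 in the chronic hearts. Without the pair of acute hearts farthest from the *Parp2* median the acute values were 0.292, 0.329 and 0.385.

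The genes around these enzymes are given from fixed lists. The counts of each list stand against wide change over all tested acute genes. With Doxo 68.1% of all genes changed (34.8% higher, 33.3% lower). In Doxo-NMN vs. Doxo 53% changed (25.7% higher, 27.4% lower), and in Doxo-NMN vs. Ctrl 26% (15% higher, 11.1% lower). Of 9 other PARP family genes, Doxo raised 4 and lowered 4 in the acute hearts. *Tiparp*, an aryl hydrocarbon receptor target, rose by 1.38 on the log2 scale (adjusted p = 3.13e-07), *Parp4*, the vault PARP, rose by 0.82 (adjusted p = 6.79e-10) and the tankyrase *Tnks* rose by 0.55. *Parp11* fell by 0.63 and the second tankyrase *Tnks2* fell by 0.46. In Doxo-NMN vs. Doxo 2 of the 9 rose and 3 fell, with *Parp11* at 0.66 and *Tiparp* at −1.34. The median of the list was 0.10 in Doxo vs. Ctrl, against −0.00157 for all tested genes.

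Of 7 PARP partners and readers 3 rose and 3 fell with Doxo. The chromatin remodeller *Chd1l*, which binds poly(ADP-ribose), rose by 0.52 (adjusted p = 3.43e-08), the PARP1 cofactor *Hpf1* by 0.39 and the repair scaffold *Xrcc1* by 0.23, while DNA ligase *Lig3* fell by 0.41. *Dtx3l*, whose product pairs with PARP9, fell by 0.43 (SE 0.0831, adjusted p = 2.39e-05) and rose by 0.24 in Doxo-NMN vs. Doxo (adjusted p = 0.0143). *Dtx3l* and *Parp9* lie on opposite strands of chromosome 16 and share 458 exon bases, which is 9.4% of the *Parp9* exons. The strand setting of the counting is not given in the sources used here, so reads of that stretch cannot be assigned to either gene. *Parp10* shares 205 exon bases with *Plec* on the same strand, 4.8% of its exons.

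Of 6 genes that remove ADP-ribose, the hydrolases *Oard1* (0.50, adjusted p = 1.8e-07) and *Adprhl2* (0.37, adjusted p = 1.4e-05) rose with Doxo and *Adprh* fell by 0.24. Of 4 tested genes of the ecto-ADP-ribosyltransferase family, 3 rose with Doxo: *Art3* (0.82), *Art5* (1.01) and *Art1* (0.67). The same 3 fell in Doxo-NMN vs. Doxo, by 0.56, 0.42 and 0.38, and were higher than in Ctrl in the Doxo-NMN hearts, by 0.26, 0.59 and 0.29.

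Of the 20 interferon-induced genes 6 rose and 5 fell with Doxo, with a median of 0.06, where 34.8% of all tested genes rose and 33.3% fell. *Mx2* rose by 1.55 (adjusted p = 2.56e-07), *Ifit2* by 0.96 and *Stat2* by 1.01, whereas *Bst2* fell by 0.75 (adjusted p = 5.68e-05) and *Oas1a* by 0.73. In Doxo-NMN vs. Doxo 8 rose and 2 fell, with *Oas1a* at 1.06, *Bst2* at 0.84 and *Mx2* at −1.18, and relative to Ctrl 7 rose and 1 fell, with *Irf7* at 1.27. Without Doxo replicate 5 the counts with Doxo were 5 and 7, and the median was −0.13. In the chronic study 0 of the 46 tested genes of these 5 lists passed edgeR's test in any comparison, with 5, 2 and 2 at an unadjusted p under 0.05 in the order of comparisons used above.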

How the data were processed

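Heart RNA was sequenced in 40 acute and 17 chronic hearts. Per the study's methods and processing notes, the authors selected poly(A) RNA, mapped single-end reads to mm10 with STAR (2.7.3a in the notes) and counted them per gene with featureCounts 2.0.0. The deposited values are raw counts per gene, without normalization by the authors, with 1 column per heart, and 0 columns were left out. Nothing states that hearts were pooled.

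The tests were made on these counts with edgeR 4.0.16 (R 4.3.3): filterByExpr by group, TMM, the 3 groups of a study fitted together, the quasi-likelihood F-test and Benjamini-Hochberg adjustment over all tested genes. The acute call also needed a 1.5-fold change. The studies were compared by interaction terms in a fit of all 6 groups over 25416 shared symbols. SE and 95% intervals come from the F statistic, and log2 CPM used a prior count of 2. Correlations are of log2 CPM with group means removed, with 0.1 CPM added to the neutrophil sum. Levels per kb use the union of exons in GENCODE's GRCm38 annotation. The calculations were tested on simulated data.

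The members and lists were chosen with earlier results of these data known. All 10 members are named, for each of the 9 tested members the 3 genes of highest correlation, and of each list examples among the 3 genes a direction with the smallest adjusted p. Other genes named were chosen after their values were seen. A gene that the rule names is not reported here. Alternatives were DESeq2 1.42.0, limma 3.58.1 with voom, RLE factors, other filters, only the groups compared, robust dispersion, the replicate number as a block, other fold limits, halved acute counts, hearts split by *Myl4* and leaving out each heart. Leaving out Doxo replicates 5 and 6 together, or replicate 6 for the spread, was chosen after seeing the data. Within groups, no pair of libraries had counts that differed by less than the sampling noise (chi-square). Replicates are separate hearts, and p-values set the differences between groups against the spread between hearts.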

Additional observations from a re-analysis of the deposited data

Results flagged for a closer look

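In the chronic Ctrl group 3 members had a heart far from the other 4, and in each case it was replicate 1, with 18.95 CPM for *Parp2* (nearest heart 15.7 CPM), 37.5 CPM for *Parp10* (nearest 19.6 CPM) and 21.6 CPM for *Cd38* (nearest 12.4 CPM). These were 3 of 30 gene and group combinations examined, and chance marks about 1 in 20 of independent ones. The 3 are not independent, since they come from 1 heart. Over the chronic hearts Pearson's r was 0.623 for *Parp2* with *Parp10*, 0.55 for *Parp2* with *Cd38* and 0.753 for *Parp10* with *Cd38*. In that heart the 20 interferon-induced genes summed to 383 CPM, the highest of the chronic hearts, and *Parp1* was at 34.3 CPM, the lowest.

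The effect of Doxo differed between the acute and the chronic study for *Parp1*, by −0.50 on the log2 scale, and for *Cd38*, by 0.80, and the effect of NMN in Doxo-treated hearts differed for *Parp12*, by 0.31. Without chronic Ctrl replicate 1 the first 2 differences were −0.36 and 0.55, with adjusted p of 0.0727 and 0.162 in edgeR.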

How the results depend on the processing

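In Doxo vs. Ctrl of the acute study 1 member was called. The number was 2 without the fold limit, 0 at a fold of at least 2, 0 with the replicate block, 0 without Doxo replicates 5 and 6, 2 in hearts at or over 100 CPM of *Myl4*, and 0 to 1 when 1 heart was left out. In Doxo-NMN vs. Doxo it was 1, and 3, 0 and 2 without the fold limit, at 2-fold and without the low-count filter, 2 without Doxo replicates 5 and 6, 2 and 0 in hearts under and over the *Myl4* limit, and 1 to 2 with a heart left out. In Doxo-NMN vs. Ctrl it was 0, and 1 without the fold limit, 1 without the filter and 0 with any heart left out. The Doxo effect differed between studies for 2 members, for 3 with limma (*Parp1*, *Parp12* and *Sarm1*, while *Cd38* was at 0.40 with an adjusted p of 0.128), for 1 without the filter, 1 with the replicate block, 0 in hearts under the *Myl4* limit and 0 to 2 with a heart left out. The NMN effect differed for 1, and for 0 with RLE factors, without the filter, with the replicate block and in hearts under the *Myl4* limit, for 4 with limma, and for 0 to 2 with a heart left out. The number of chronic calls was 0 in every alternative.

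The sign turned, with no value past the threshold, for *Parp3* in Doxo vs. Ctrl (−0.00216 without the filter, −0.0171 without Doxo replicates 5 and 6, −0.0415 under the *Myl4* limit), *Parp2* in Doxo vs. Ctrl (−0.0279 under the limit), and in Doxo-NMN vs. Doxo over the limit for *Parp2* (−0.0432), *Parp3* (−0.0211) and *Parp9* (0.11). *Parp9* was at 0.000397 with limma and 0.0212 without replicates 5 and 6. In Doxo-NMN vs. Ctrl, *Parp9* (0.0281) and *Cd38* (0.17) turned over the limit. Chronic Doxo vs. Ctrl turned for *Parp1* (−0.10 with limma, −0.0034 without the filter) and *Cd38* (0.12 with limma). With a heart left out it ranged from −0.15 to 0.0872 for *Parp1* and from −0.29 to 0.0587 for *Cd38*, and in the acute study *Parp3* ranged from −0.0191 to 0.0495 in Doxo vs. Ctrl and from −0.00235 to 0.0724 in Doxo-NMN vs. Doxo. The cause was not tested. Replicate numbers did not pair the samples: deviations of same-numbered hearts correlated from −0.624 to 0.584 over 39 acute pairs and from −0.255 to 0.409 over 16 chronic pairs, and 2 pairs of each study correlated best with their own number. With limma *Parp9*, *Parp10*, *Parp12* and *Parp14* all fell in acute Doxo vs. Ctrl.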
